A study of Homo sapiens with 26 samples.

Results

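The genes described here are 9 genes of the extracellular matrix: 6 collagen chains (COL3A1, COL16A1, COL17A1, COL18A1, COL4A1 and COL4A2) and 3 laminin chains (LAMA3, LAMB3 and LAMA5). They were taken by symbol from both deposited tables of FPKM (fragment counts scaled to transcript length and to the fragments mapped), which list 18358 genes between them, and all 9 are in both. The set was chosen by a reader of earlier results on these libraries, and which measured values led to each choice is not recorded. Each p-value below therefore sets the size of a difference against a spread between replicates, and is not independent support for it. In the main fit that spread is pooled over all groups of a table and drawn toward that of genes of like level. It is not the spread of the compared replicates alone.

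The libraries come from LoVo, a human colorectal cancer cell line grown in DMEM with 10% fetal bovine serum, as wild type or carrying PIK3CA mutation E545K or H1047R brought in with a lentiviral vector. PIK3CA is the gene of a lipid kinase catalytic subunit in growth signalling. The first table holds 9 groups: wild type, E545K and H1047R, each in DMSO for 72 hours, in 0.5 µM palbociclib for 72 hours, and in conditioned medium collected from senescent cells (labelled S-CM, hours not stated). Palbociclib inhibits the cell cycle kinases CDK4 and CDK6 and was used to bring on senescence. The second table holds 4 groups: E545K and H1047R in 0.5 µM palbociclib (hours not stated), or in 0.5 µM palbociclib with 4 µM erlotinib, an inhibitor of the EGF receptor, for 48 hours. The protocol also has control cells collected at 48 hours, without naming the libraries. For the palbociclib experiment the series description names 1 clone per mutation, so there a mutation is 1 line, and a difference between clones cannot be told apart from a difference between mutations. Each of the 13 groups has 2 libraries, and nothing in the labels says that they came from separate cultures, so the spread between them may be technical.

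Laminins are trimers of an alpha, a beta and a gamma chain that form the sheet of the basement membrane on which epithelial cells sit. LAMA3 (alpha) and LAMB3 (beta) are chains of laminin-332, the laminin that holds epithelia down through hemidesmosomes and that carcinoma cells often make at an invading edge. LAMA5 is the alpha chain of the laminins of the mature intestinal epithelium. Collagen IV, of which COL4A1 and COL4A2 are the common chains, forms the second network of the basement membrane. COL17A1 spans the plasma membrane at hemidesmosomes and binds laminin-332. COL18A1 is a basement membrane proteoglycan, the source of endostatin. COL16A1 is a fibril-associated collagen, and COL3A1 forms fibrils of soft connective tissue, made mostly by fibroblasts.

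Promoter sequences are shown for LAMA3, LAMB3 and COL17A1, whose products anchor epithelial cells to the basement membrane, and a short site for the COL4A1 and COL4A2 pair, which are read from opposite strands with 126 bases between their starts. All are RefSeq sequence of build GRCh38.p14, 5′ to 3′ on the strand named, from the 250 bases before a start. RefSeq windows matched 8 of the 9 genes at 11 starts, and COL3A1 had no entry. Capitals mark the motif searched on both strands. In the laminin genes this was the AP-1 site, TGANTCA. For COL17A1 it was the TATA box, spelled TATAAA. In the collagen IV pair it was the site of the factor NF-Y, spelled CCAAT. The motifs do not overlap each other in the runs printed.

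LAMA3 site 1 (chr18:23872885-23872911, plus strand): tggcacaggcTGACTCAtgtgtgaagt

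LAMA3 site 2 (chr18:23872941-23872967, plus strand): cttcctcaccTGAGTCAggcaggcccg

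LAMB3 inner start (chr1:209651375-209651624, minus strand): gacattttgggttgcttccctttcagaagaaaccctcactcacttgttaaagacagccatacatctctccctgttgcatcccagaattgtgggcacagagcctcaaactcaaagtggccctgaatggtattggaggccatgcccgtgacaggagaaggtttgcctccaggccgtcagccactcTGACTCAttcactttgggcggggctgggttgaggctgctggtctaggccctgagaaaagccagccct

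LAMB3 outer start (chr1:209652467-209652675, minus strand): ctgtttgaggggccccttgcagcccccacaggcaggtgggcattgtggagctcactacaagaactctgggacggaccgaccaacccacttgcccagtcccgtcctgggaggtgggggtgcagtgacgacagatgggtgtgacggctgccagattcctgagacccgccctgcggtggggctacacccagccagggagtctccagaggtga

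COL17A1 (chr10:104085958-104086130, minus strand): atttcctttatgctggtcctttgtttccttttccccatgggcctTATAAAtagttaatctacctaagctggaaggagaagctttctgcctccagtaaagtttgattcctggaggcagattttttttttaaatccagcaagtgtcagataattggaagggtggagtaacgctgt

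COL4A1 and COL4A2 site (chr13:110307169-110307193, plus strand): gccgagctccCCAATttgttggcgc

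The LAMA3 sites lie at -125 to -119 and -69 to -63 from a start inside the gene, in bases that GENCODE 29 annotates as a 5′ UTR exon of LAMA3. LAMB3 has its match at -67 to -61 from the inner of its starts, in an intron of the gene, and the run before its outer start, which lies outside the gene, holds none. An AP-1 match was found in 6.57% of the 35116 promoter windows of this length in the table. The COL17A1 match lies at -206 to -201 of its start, upstream of the gene's annotated exons, and 10.7% of windows hold such a box. The collagen IV match lies at -105 to -101 of the COL4A2 start, inside a 5′ UTR exon of COL4A1, and is held by 32% of windows. A match is a description of the letters and not a measured binding site.

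FPKM sums ran from 441643 to 524290 per library. Read depth is unknown, as the tables hold no counts. The 8 intestinal epithelium markers summed to between 7016 and 16685 FPKM in the first table and between 8600 and 10036 in the second. Fibroblast markers summed to between 0.85 and 1.95 FPKM in the first table, which lists 8 of the 10, without COL1A2 and POSTN. In the second, which lists all 10, the sums were 1.14 to 6.39. Endothelial markers summed to at most 0.54. Leukocyte markers summed to between 26.98 and 72.16, most of it CD68. Wild type in DMSO stood apart from the other groups: the median gene was 0.25 higher in E545K and 0.26 higher in H1047R on the log2 scale. Where the median of all genes lay more than 0.1 from 0, changes are given as relative log2 changes, the log2 change of FPKM + 1 less that median, while the test remains that of the change from 0. Replicates were farthest apart in H1047R palbociclib of the first table (SD 0.232 on the log2 scale, over genes) and closest in E545K with palbociclib and erlotinib (0.0874).

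On this per-length scale LAMB3 was the highest, from 58.31 to 175.88 FPKM over the 18 libraries of the first table, and LAMA3 (20.28 to 88.10), LAMA5 (18.66 to 38.75) and COL17A1 (9.16 to 27.30) followed. COL3A1 (1.29 to 19.64), COL16A1 (1.50 to 8.93) and COL18A1 (0.16 to 2.56) reached lower maxima. The range of COL3A1 overlapped those of COL17A1 and LAMA5, and in wild type in conditioned medium both COL3A1 libraries were above both of COL17A1. COL4A1 and COL4A2 did not reach 1 FPKM in any of the 26 libraries, and were not tested. The tests thus cover 7 genes, each of which had at least 1 FPKM in at least 2 libraries of both tables. The tables list 44 collagen chains between them, of which 12 and 9 passed that filter in the first and second table, whereas of 12 laminin chains 9 and 8 passed. In bulk RNA, fewer cells that make a transcript and less transcript per cell cannot be told apart.

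**Figure D1:**
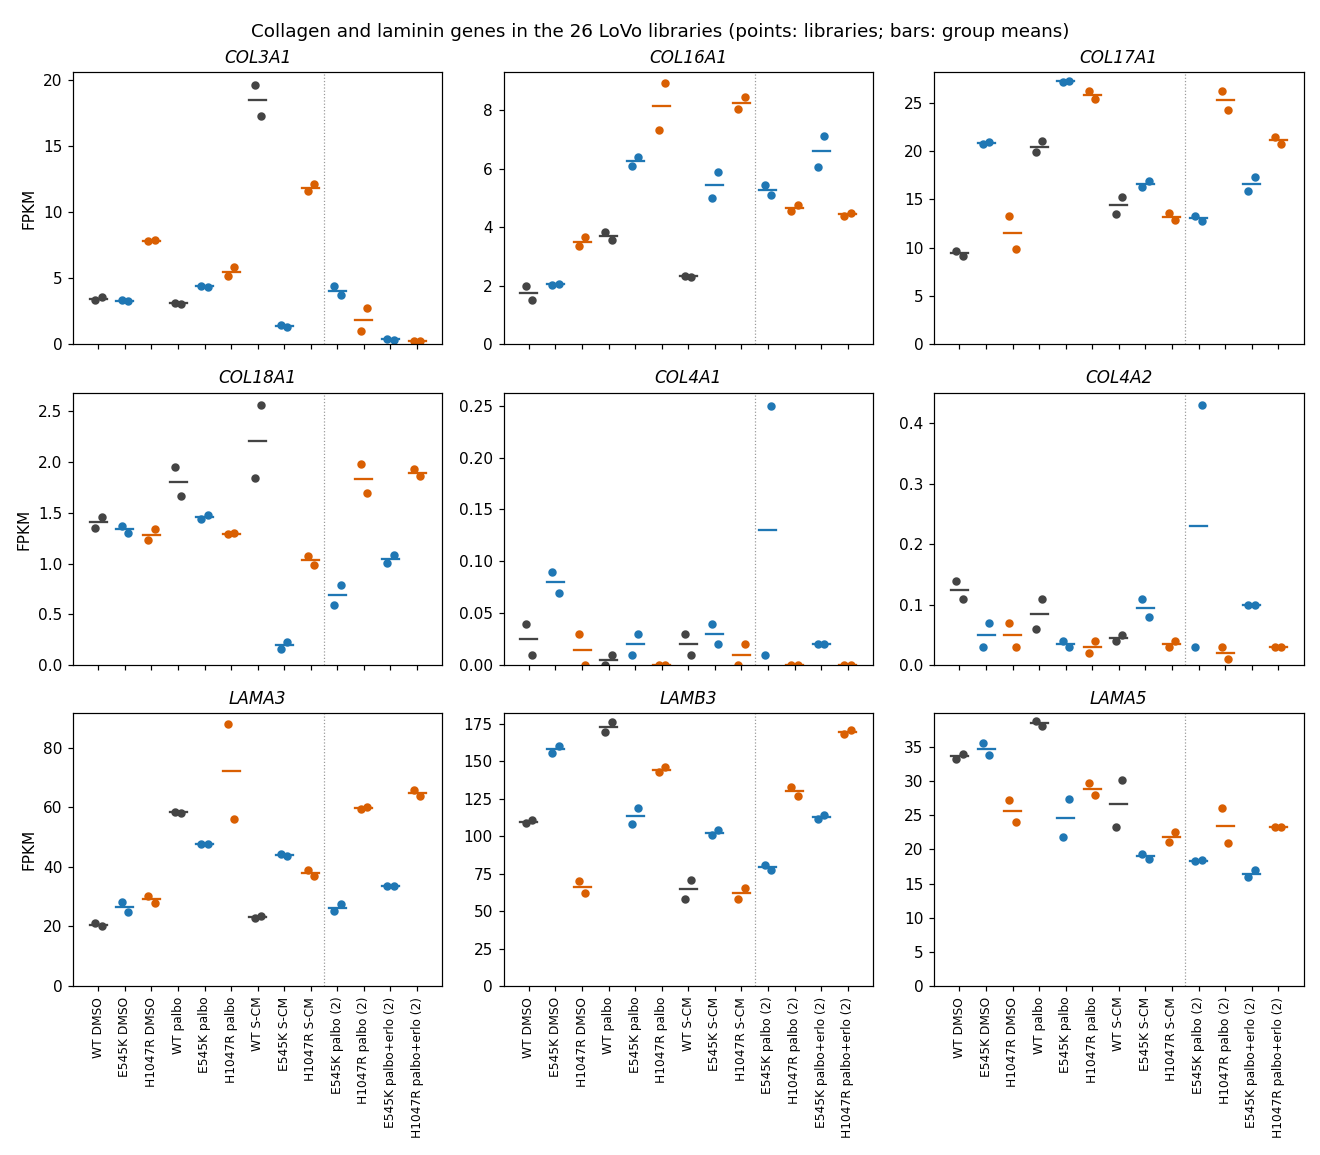
FPKM of the 9 genes in all 26 libraries (points) with group means (bars), for wild type (grey), E545K (blue) and H1047R (orange). The dotted line separates the first table from the second, marked (2); palbo is palbociclib, erlo is erlotinib and S-CM is conditioned medium. COL3A1 is highest in wild type in conditioned medium, at 19.64 and 17.31 FPKM, and COL4A1 and COL4A2 stay below 0.5 throughout.

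LAMA3, the alpha chain of laminin-332, was higher under palbociclib than in DMSO in all 3 genotypes of the first table. Its FPKM in DMSO was 21.03 and 20.28 in wild type, 28.05 and 24.81 in E545K, and 30.29 and 27.97 in H1047R. Under palbociclib it was 58.41 and 58.16 in wild type, 47.79 and 47.71 in E545K, and 88.10 and 56.16 in H1047R. In the first table no palbociclib library overlapped a DMSO library of any genotype, and the H1047R palbociclib pair was the widest apart. E545K under palbociclib in the second table was 25.04 and 27.61 FPKM, within the range of E545K in DMSO. No test across the tables was made. The relative log2 change of LAMA3 under palbociclib was 1.31 for wild type (SE 0.14, limma adjusted p = 4.09e-06). In E545K the log2 change was 0.83 (SE 0.14, limma adjusted p = 0.000139), and in H1047R it was 1.25 (SE 0.14, limma adjusted p = 9.62e-06).

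LAMB3, the beta chain, did not move the same way in the 3 genotypes. Its DMSO values were 108.65 and 110.65 FPKM in wild type, 155.49 and 159.97 in E545K, and 70.35 and 62.21 in H1047R. Under palbociclib they were 169.52 and 175.88 in wild type, 107.75 and 118.93 in E545K, and 142.44 and 145.94 in H1047R. LAMB3 was thus highest in E545K among the DMSO groups and lowest in E545K among the palbociclib groups, with no overlap. It rose by a relative log2 change of 0.51 in wild type (SE 0.09, limma adjusted p = 9.99e-05) and by a log2 change of 1.11 in H1047R (SE 0.09, limma adjusted p = 4.77e-07). In E545K it fell by 0.47 on the log2 scale (SE 0.09, limma adjusted p = 0.00047). The difference in response between E545K and wild type was -1.13 (SE 0.13, limma adjusted p = 3.37e-05).

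**Figure D2:**
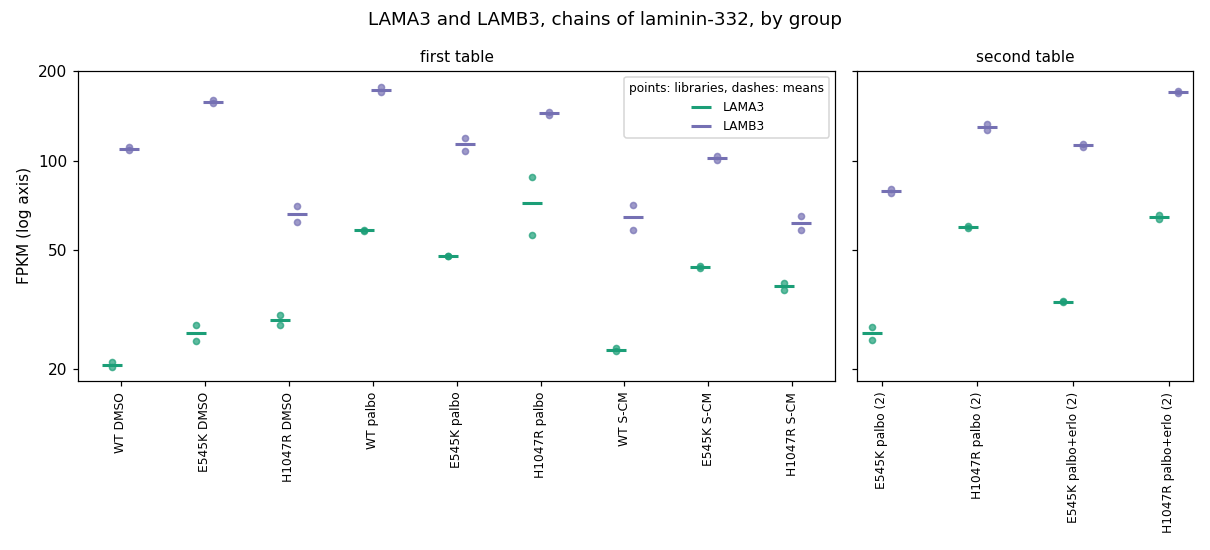
FPKM, on a log axis, of LAMA3 and LAMB3 by group, with libraries as points and means as dashes. In the first table LAMA3 is higher in every palbociclib group than in the DMSO group of the same genotype. There LAMB3 is lower under palbociclib in E545K (113.3 against 157.7 FPKM). In the second table LAMA3 in E545K under palbociclib, at 25.04 and 27.61 FPKM, is not above E545K in DMSO.

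Over the 18 libraries of the first table LAMA3 and LAMB3 had a Pearson correlation of 0.44. In the 8 libraries of the second table it was 0.92. These libraries share groups and scaling, so the values describe the pattern only.

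LAMA5 was called under palbociclib in 1 of the 3 genotypes. Its values in DMSO were 33.26 and 34.03 FPKM in wild type, 35.57 and 33.80 in E545K, and 27.29 and 24.07 in H1047R. Under palbociclib they were 38.75 and 38.10, 21.78 and 27.35, and 29.73 and 28.03 in the same order. It fell by 0.49 on the log2 scale in E545K (SE 0.11, limma adjusted p = 0.00202). The change was not called in wild type (relative log2 change 0.05, SE 0.11, limma adjusted p = 0.216) or in H1047R (log2 change 0.17, SE 0.11, limma adjusted p = 0.255).

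Among the collagens, COL17A1, the hemidesmosome collagen that binds laminin-332, was higher under palbociclib in all 3 genotypes of the first table. Its DMSO values were 9.72 and 9.16 FPKM in wild type, 20.70 and 20.92 in E545K, and 13.25 and 9.91 in H1047R. Under palbociclib they were 19.90 and 21.02, 27.19 and 27.30, and 26.20 and 25.42. E545K in DMSO lay within the range of wild type under palbociclib, and all other palbociclib libraries of the first table were above every DMSO library. E545K under palbociclib in the second table was 13.27 and 12.82 FPKM, below E545K in DMSO. No test across the tables was made. For wild type the relative log2 change was 0.90 (SE 0.10, limma adjusted p = 5.22e-06), and the log2 change was 0.37 in E545K (limma adjusted p = 0.00614) and 1.10 in H1047R (limma adjusted p = 1.61e-06). After median-centring the E545K change was 0.24 and not called. The response in E545K less that in wild type was -0.67 (SE 0.14, limma adjusted p = 0.00362).

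COL16A1, a fibril-associated collagen, was also higher under palbociclib in all 3 genotypes. Its DMSO values were 2.00 and 1.50 FPKM in wild type, 2.03 and 2.07 in E545K, and 3.36 and 3.65 in H1047R. Under palbociclib they were 3.85 and 3.57, 6.10 and 6.41, and 7.33 and 8.93. The 3 palbociclib groups of the first table were ordered wild type, E545K and H1047R without overlap. Wild type under palbociclib overlapped H1047R in DMSO. In the second table H1047R under palbociclib, at 4.56 and 4.75 FPKM, was below E545K, at 5.45 and 5.10. For wild type the relative log2 change was 0.64, and the log2 changes were 1.25 in E545K and 1.01 in H1047R (SE 0.11 each, limma adjusted p of 0.000111, 4.52e-07 and 8.57e-06).

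COL3A1 and COL18A1 did not share this pattern. COL3A1 under palbociclib was 3.13 and 3.09 FPKM in wild type, 4.43 and 4.37 in E545K, and 5.16 and 5.85 in H1047R. In DMSO it was 3.36 and 3.57, 3.34 and 3.27, and 7.79 and 7.88 in the same order, so that H1047R in DMSO held the highest values of these 6 groups. COL3A1 fell by 0.44 on the log2 scale in H1047R (SE 0.09, limma adjusted p = 0.00119). It rose by 0.33 in E545K, a change of 0.13 that was not called after quantile normalization. Its relative log2 change of -0.26 in wild type was not called. There it was called lower after quantile normalization (-0.37, limma adjusted p = 0.0167) and median-centring (-0.28, limma adjusted p = 0.0397). COL18A1 lay between 1.23 and 1.95 FPKM in the DMSO and palbociclib libraries of the first table, and was called in none of the 3 genotypes.

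Of the 7 tested genes, palbociclib changed 4 in wild type, where 34% of all tested genes were called. In E545K 6 of 7 were called against 52.2% of all genes, and in H1047R 5 of 7 against 39.3%. COL16A1, COL17A1 and LAMA3 were among the called in each, all higher. The higher and lower calls, 4 and 0 in wild type and 4 and 2 in E545K, were 4 and 1, and 2 and 2, after median-centring. The epithelium markers summed to 7016 and 7323 FPKM in DMSO and 8034 and 8381 under palbociclib in wild type, to 8059 and 8611 and then 12598 and 13026 in E545K, and to 8340 and 7329 and then 12725 and 16685 in H1047R. Such sums follow the most abundant markers. Of the 7 markers tested, 2 were higher and 1 lower in wild type, 4 and 1 in E545K, and 3 and 2 in H1047R. The shares called were 42.9%, 71.4% and 71.4%. After median-centring the splits were 1 and 1, 3 and 1, and 3 and 0. The part of these markers in the palbociclib changes was not tested. For the difference of response between E545K and wild type, 6 of 7 were called against 25.7% of all genes: COL3A1 and COL16A1 higher, COL17A1, LAMA3, LAMB3 and LAMA5 lower. The calls of COL16A1 and LAMA3 ended in 9 of 14 alternatives each. Between H1047R and wild type 1 of 7 was called against 22.6%, LAMB3, with a relative difference of 0.63 (SE 0.13) and a call that ended in 6 of 14 alternatives. These differences all share the wild-type libraries.

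**Figure D3:**
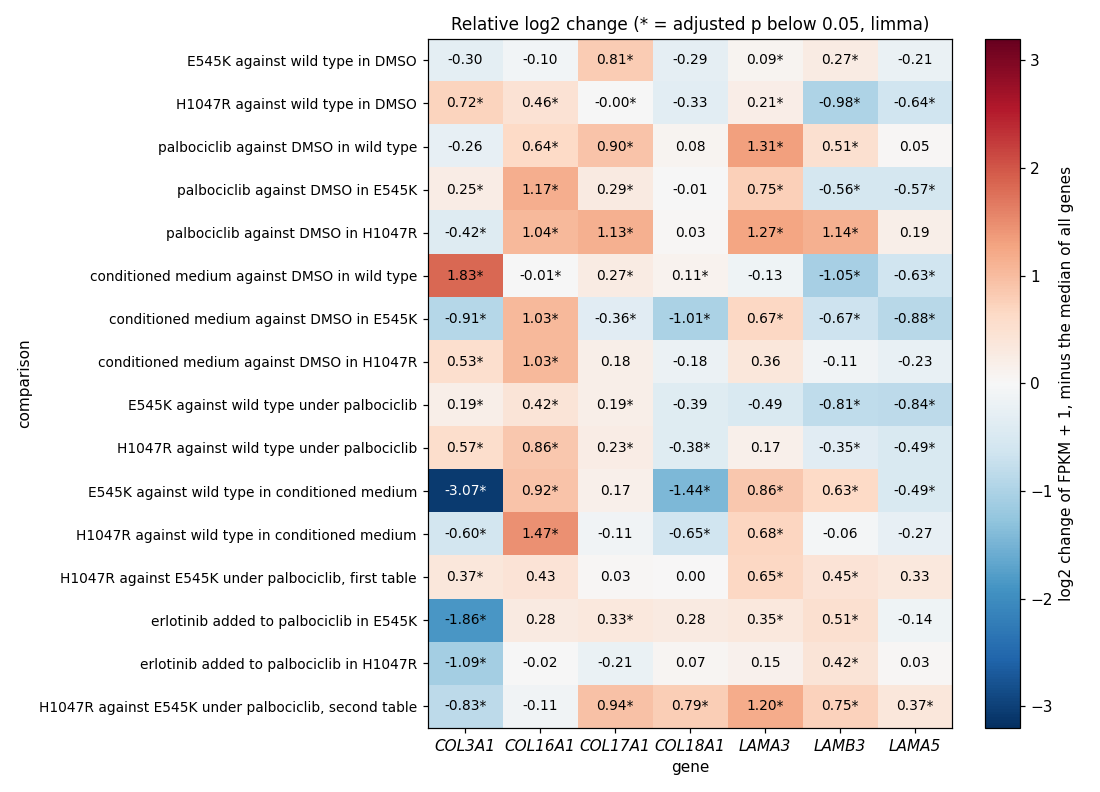
Relative log2 change of the 7 tested genes (columns) in 16 comparisons of 2 groups (rows), from blue (lower) to red (higher), each value printed. Stars mark calls on the log2 change before the median was taken off. COL16A1 and LAMA3 are positive in all 3 palbociclib comparisons, and the lowest value is COL3A1 in E545K against wild type in conditioned medium, at -3.07.

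Conditioned medium changed COL3A1, the fibrillar collagen, more than any other tested member in wild type. In E545K the log2 changes of COL16A1 (1.08) and COL18A1 (-0.97) were larger, and in H1047R that of COL16A1 (1.04) was. COL3A1 in wild type was 19.64 and 17.31 FPKM in conditioned medium against 3.36 and 3.57 in DMSO. In H1047R it was 11.60 and 12.12 against 7.79 and 7.88. In E545K it was 1.44 and 1.29 against 3.34 and 3.27. The wild-type libraries in conditioned medium were the highest of all 26 and the E545K ones the lowest of the first table. COL3A1 rose by a relative log2 change of 1.83 in wild type (SE 0.09, limma adjusted p = 8e-11) and by a log2 change of 0.54 in H1047R (SE 0.09, limma adjusted p = 0.00121), and fell by 0.86 in E545K (SE 0.09, limma adjusted p = 9.66e-07). The response less that of wild type was a relative -2.76 in E545K (SE 0.12) and -1.31 in H1047R (SE 0.12), both called. The 8 fibroblast markers listed in the first table, without COL1A2 and POSTN, summed to at most 1.95 FPKM in each of its libraries. Their part in the COL3A1 values was not tested.

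COL18A1, the endostatin precursor, was lowest in the same E545K group. It was 0.16 and 0.23 FPKM in E545K in conditioned medium against 1.37 and 1.3 in DMSO. In wild type it was 1.84 and 2.56 against 1.35 and 1.46, and in H1047R 1.07 and 0.99 against 1.23 and 1.34. No other library of the first table was below 0.9 FPKM. It fell by 0.97 in E545K (SE 0.11, limma adjusted p = 3.06e-06). The added 1 understates a change at these levels, and with 0.1 added in its place the log2 change was -2.29. The wild-type change was a relative 0.11 (SE 0.11), called as a change of 0.40 from 0 and not called after quantile normalization or median-centring, and the H1047R change of -0.17 was not called (limma adjusted p = 0.328).

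COL16A1 was higher in conditioned medium in both mutant lines. It was 5.01 and 5.88 FPKM in E545K and 8.05 and 8.43 in H1047R, against 2.03 and 2.07, and 3.36 and 3.65, in DMSO, with no overlap in either. The log2 changes were 1.08 in E545K and 1.04 in H1047R (SE 0.11, limma adjusted p of 1.21e-06 and 7.4e-05). In wild type it was 2.35 and 2.31 against 2.00 and 1.50 FPKM. The relative change there was -0.01, and the sign of the log2 change, 0.28, turned negative under quantile normalization (-0.14) and median-centring (-0.06).

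The laminin chains moved apart in conditioned medium. LAMA3 rose by 0.72 in E545K (SE 0.14), from 28.05 and 24.81 to 44.28 and 43.63 FPKM. It was 22.99 and 23.46 FPKM in wild type and 38.87 and 36.83 in H1047R, changes not called (limma adjusted p of 0.3 and 0.0874). LAMB3 fell by a relative log2 change of 1.05 in wild type, to 58.34 and 70.93 FPKM, and by 0.62 in E545K, to 100.53 and 103.84, while H1047R at 58.31 and 65.32 was not called (-0.10, SE 0.09).

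LAMA5 was lower in wild type at 23.33 and 30.09 FPKM (relative log2 change -0.63, SE 0.11) and in E545K at 19.35 and 18.66 (-0.83, SE 0.11), whereas H1047R at 21.05 and 22.54 was not called. The wild-type LAMA5 call ended when the first conditioned-medium replicate was left out (log2 change -0.16, limma adjusted p = 0.254). COL17A1 was 13.52 and 15.28 FPKM in wild type, 16.32 and 16.93 in E545K, and 13.59 and 12.87 in H1047R. It rose in wild type (relative 0.27, not called after quantile normalization or median-centring) and fell in E545K by 0.31 (SE 0.10, limma adjusted p = 0.017).

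Conditioned medium called 6 of 7 in wild type, where 70.5% of all genes were called, 7 of 7 in E545K against 57.3%, and 2 of 7 in H1047R (COL3A1 and COL16A1) against 14.6%. Of the 6 in wild type, 3 stayed called after quantile normalization or median-centring: COL3A1, LAMB3 and LAMA5, so that 4 higher and 2 lower became 1 and 2. The difference of response called 6 of 7 between E545K and wild type (47.1% of all genes) and 5 of 7 between H1047R and wild type (50.9%), on shared wild-type libraries. For H1047R the 2 higher and 3 lower were 4 and 1 after median-centring.

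The 2 mutations already differed from wild type in DMSO, with wild type apart in scaling. In E545K 3 of 7 genes were called against 58.8% of all genes, and in H1047R 6 of 7 against 67.4%. Higher and lower calls were 3 and 0 in E545K and 4 and 2 in H1047R, and 1 and 2, and 2 and 3, after median-centring. Of all genes 48.4% were called higher and 10.4% lower in E545K, and 49.9% and 17.5% in H1047R. COL18A1, not called in either line, was called lower in both after quantile normalization and after median-centring (-0.34 in E545K and -0.42 in H1047R). COL3A1 in E545K was likewise called lower only under both of these scalings (-0.35 after median-centring). COL17A1 was higher in E545K, by a relative log2 change of 0.81 (SE 0.10), in all scalings. In H1047R, COL3A1 was higher by a relative 0.72 (SE 0.09) and COL16A1 by 0.46 (SE 0.11), and LAMB3 (relative -0.98, SE 0.09) and LAMA5 (relative -0.64, SE 0.11) were lower. The LAMA5 call ended without the second H1047R replicate in DMSO (limma adjusted p = 0.0735). The E545K call of LAMB3, a relative 0.27, was lost after median-centring. Calls of LAMA3 in both lines were lost under both other scalings, and COL17A1 in H1047R, with a relative log2 change of -0.0043 (0.26 from 0), turned negative under both.

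Under palbociclib 5 of 7 genes were called between E545K and wild type (65.1% of all genes) and 6 of 7 between H1047R and wild type (62.5%). LAMB3 was lower in E545K (relative -0.81) and in H1047R (-0.26, SE 0.09), as was LAMA5 (relative -0.84, then -0.40, SE 0.11). COL16A1 was higher by a relative 0.42 and by 0.95 (SE 0.11). Leaving out the first wild-type replicate under palbociclib took the H1047R count to 3. Calls in E545K, 3 higher and 2 lower, were 1 and 4 after median-centring, and those in H1047R, 3 and 3, were 2 and 3 after quantile normalization.

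In conditioned medium 6 of 7 were called between E545K and wild type (33.9% of all genes) and 4 of 7 between H1047R and wild type (8.38%). COL3A1 was lower in E545K (-3.04, SE 0.09, limma adjusted p = 1.86e-12) and in H1047R (-0.60, SE 0.09, limma adjusted p = 0.00044). COL16A1 was higher by 0.95 and 1.47 (SE 0.11), LAMA3 by 0.89 and 0.68 (SE 0.14), and COL18A1 was lower in both (-1.41 and -0.65, SE 0.11). LAMA3 and COL16A1 thus stood above wild type in both lines, and COL3A1 and COL18A1 below it. With 0.1 added in place of 1, the COL18A1 log2 changes were -2.96 in E545K and -1.01 in H1047R. LAMB3 was higher by 0.66 in E545K (SE 0.09) and not called in H1047R. The LAMA3 call in H1047R ended without its first conditioned-medium replicate (limma adjusted p = 0.0599).

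COL3A1 was lower where erlotinib was added to palbociclib. For every erlotinib comparison, hours in palbociclib alone are not stated, so added erlotinib and a difference in hours cannot be told apart. In the second table COL3A1 was 4.39 and 3.74 FPKM in E545K under palbociclib and 0.40 and 0.37 with erlotinib, and 1.03 and 2.74 in H1047R under palbociclib and 0.26 and 0.27 with erlotinib. All 4 erlotinib libraries were below all 4 libraries without it. The 4 libraries of palbociclib alone were the only ones of the table in which COL3A1 reached 1 FPKM, so it passed the filter through the groups where it is high, and its filtered tests are no support for a difference. The log2 change was -1.87 in E545K and -1.12 in H1047R (SE 0.24), on a scale where the added 1 understates a change at these levels. With no filter on genes, the limma adjusted p was 0.0119 in E545K and 0.071 in H1047R, where it was not called. The filtered call in H1047R (limma adjusted p = 0.0245) also ended with only the compared groups in the fit (0.125), and without either H1047R erlotinib replicate (0.119 and 0.151). Without the second H1047R replicate under palbociclib alone the log2 change was -0.68.

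LAMB3 rose with erlotinib in both lines. It went from 80.51 and 77.71 to 111.40 and 113.86 FPKM in E545K and from 132.79 and 126.66 to 168.37 and 170.45 in H1047R, with no overlap. The log2 changes were 0.50 and 0.38 (SE 0.05, limma adjusted p of 0.000656 and 0.00259). LAMA3 rose in E545K, from 25.04 and 27.61 to 33.63 and 33.67 FPKM (0.34, SE 0.06), and in H1047R was 59.43 and 60.13 against 65.75 and 63.70, not called.

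COL17A1 went from 13.27 and 12.82 to 15.86 and 17.33 FPKM in E545K (0.32, SE 0.07, limma adjusted p = 0.0143), and in H1047R from 26.20 and 24.30 to 21.42 and 20.79 (-0.25, limma adjusted p = 0.0527). The difference between these responses was -0.57 (SE 0.09, limma adjusted p = 0.0229), a call that ended in 8 of 14 alternatives. COL16A1, COL18A1 and LAMA5 were not called for erlotinib in either line. COL16A1 was 5.45 and 5.10 FPKM in E545K under palbociclib and 6.07 and 7.12 with erlotinib, and LAMA5 went from 18.27 and 18.42 to 15.89 and 17.02. In all, 4 of 7 genes were called for erlotinib in E545K (16.2% of all genes) and 2 of 7 in H1047R (9.36%), each count including COL3A1, which the filter let in as described, and the difference between lines was called for 1 of 7 (2.17%).

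The 2 tables each held H1047R and E545K under palbociclib, in separate libraries. In the first, 3 of 7 genes were called (16.3% of all genes): COL3A1, LAMA3 and LAMB3, all higher in H1047R. In the second, 6 of 7 were called (51.6%): COL17A1, COL18A1, LAMA3, LAMB3 and LAMA5 higher and COL3A1 lower. LAMA3 was higher by a relative 0.65 (SE 0.14) in the first and by 1.15 (SE 0.06) in the second, and LAMB3 by a relative 0.45 (SE 0.09) and by 0.71 (SE 0.05). COL3A1, called in both, had opposite signs, a relative 0.37 (SE 0.09) and -0.88 (SE 0.24). The second value rests on H1047R libraries at 1.03 and 2.74 FPKM, and its call ended without the first E545K replicate (limma adjusted p = 0.0866). COL16A1, called in neither, also had opposite signs, a log2 change of 0.33 in the first and -0.15 in the second. In the first it was called higher after quantile normalization (0.47) and median-centring (0.45). First-table changes of COL17A1 (-0.08) and COL18A1 (-0.10) were not called and turned sign with the scaling. In the first table no call held when only these 4 libraries were fitted. Hours in palbociclib differ or are not stated, and no test across the tables was made.

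**Figure D4:**
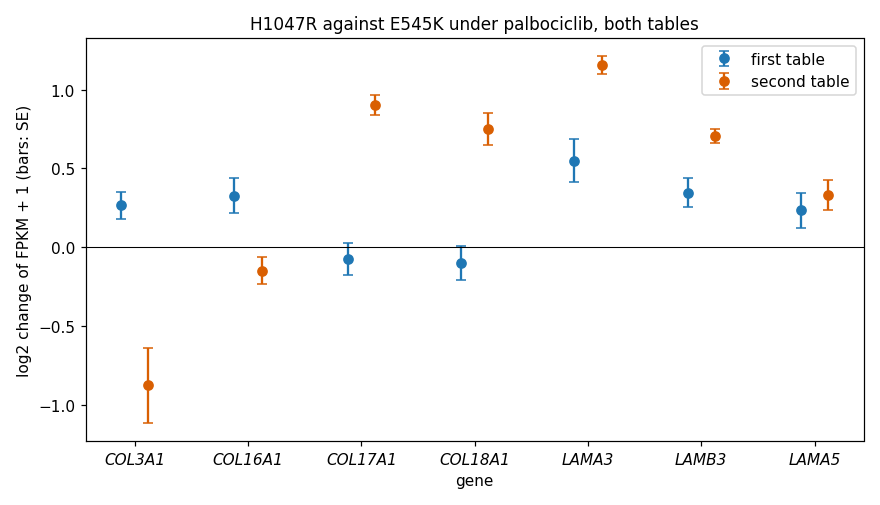
Log2 change of FPKM + 1 between H1047R and E545K under palbociclib for the 7 tested genes, in the first table (blue) and the second (orange), with SE bars. LAMA3 and LAMB3 lie above 0 in both, and COL3A1 and COL16A1 lie above 0 in the first and below it in the second.

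COL4A1 and COL4A2 were at or near 0. In the first table COL4A1 ran from 0 to 0.09 FPKM and COL4A2 from 0.02 to 0.14. The second replicate of E545K under palbociclib in the second table held 0.25 FPKM of COL4A1 and 0.43 of COL4A2, against 0.01 and 0.03 in its partner. The same library held COL1A2 at 1.55 FPKM, COL6A2 at 1.47, COL1A1 at 3.67, SPARC at 0.80 and FN1 at 2.77. FN1 was higher in some libraries of the first table, at 3.82 and 3.81 FPKM in E545K in DMSO. In that second palbociclib replicate fibroblast markers summed to 6.39, against 1.14 to 1.4 in the other 7 libraries of the second table. Most of that sum was COL1A1 and COL1A2. The other fibroblast markers were low there: THY1 0.38, COL6A3 0.33, POSTN 0.20, PDGFRB 0.11, LUM 0.06, PDGFRA 0.05, DCN 0.04 and FAP 0. COL6A3 was higher, at 0.39 and 0.40, in E545K with erlotinib. In the library that stood apart, 23 genes of at least 0.25 FPKM reached 5 times their highest level in the other libraries of the table. Each of the other 25 libraries held 0 to 5 such genes. Its COL3A1, at 3.74 FPKM, was not above its partner at 4.39. The part of this library in other results was not tested beyond leaving it out, where the log2 change of COL3A1 with erlotinib in E545K was -1.96 in place of -1.87.

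**Figure D5:**
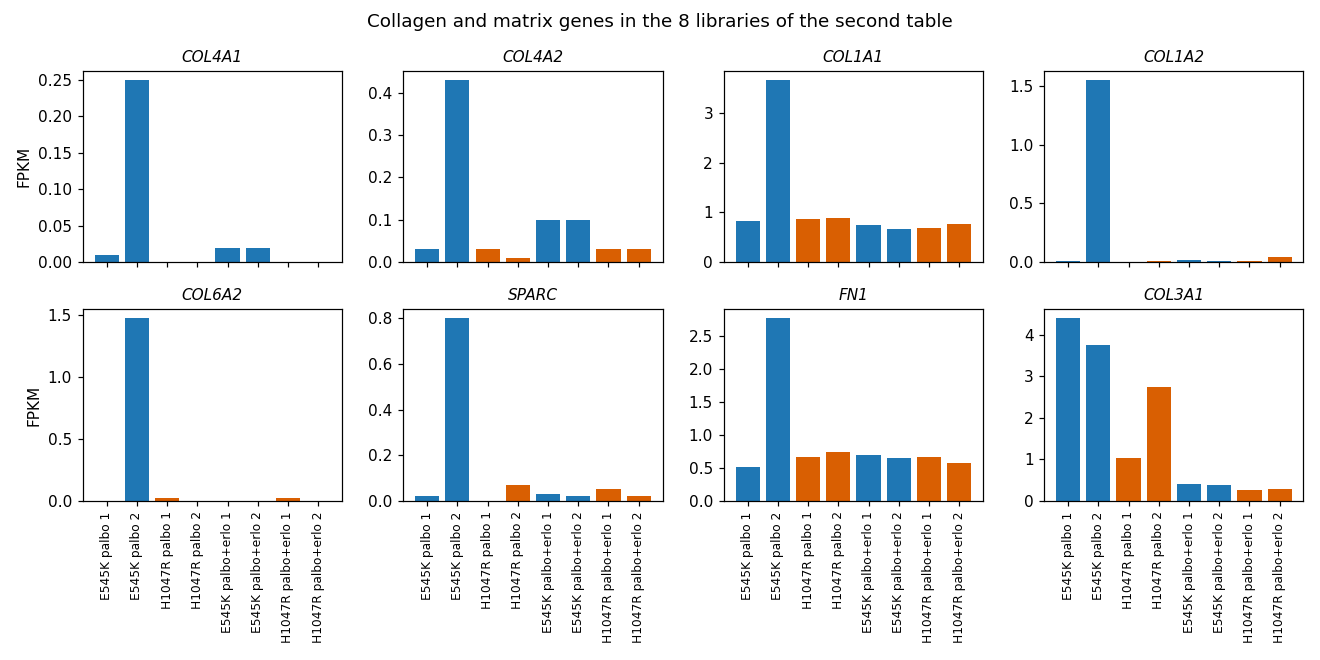
FPKM of COL4A1, COL4A2 and 6 further matrix genes in the 8 libraries of the second table, for E545K (blue) and H1047R (orange). The second E545K palbociclib replicate is the highest bar in every panel but COL3A1, where its partner is higher.

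The lists of related genes that follow are read against all tested genes, of which 34%, 52.2% and 39.3% were called under palbociclib in wild type, E545K and H1047R, and 70.5%, 57.3% and 14.6% in conditioned medium. A list share near these is not a result about the list. Under palbociclib, of 22 tested enzymes and chaperones that make collagen, 6 were higher and 1 lower in wild type, 5 higher and 3 lower in E545K, and 8 higher and 6 lower in H1047R, with list medians of 0.04, -0.14 and 0.14 relative to all genes. The shares called were 31.8%, 36.4% and 63.6%. After median-centring the split was 4 and 3 in wild type and 4 and 9 in E545K. SERPINH1, the collagen chaperone HSP47, was higher in all 3 genotypes, by a relative 0.63 in wild type, and by 0.95 and 0.54 in E545K and H1047R. PCOLCE2, which speeds procollagen cleavage, was also higher in all 3 (a relative 0.71, then 0.88 and 0.74). In conditioned medium 10 rose and 2 fell in wild type, 5 and 10 in E545K, and 2 and 3 in H1047R, with medians of -0.12, -0.23 and -0.07. These were 54.5%, 68.2% and 22.7% of the list. The wild-type split was 5 and 8 after median-centring. P3H2, a prolyl hydroxylase of collagen, was higher in wild type by a relative 1.26 and in E545K by 1.25, and P3H1, of the same family, was lower in E545K (-1.49).

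Of 9 tested basement membrane partners, 3 were higher and 0 lower under palbociclib in wild type, 0 and 5 in E545K, and 1 and 4 in H1047R, with medians of 0.02, -0.45 and -0.25. The shares called were 33.3%, 55.6% and 55.6%. In wild type the split was 2 and 1 after median-centring. In E545K the called genes were led by FN1 (fibronectin, -0.77) and HSPG2 (perlecan, -0.64), and in H1047R by AGRN (agrin, 0.68) and NTN4 (-0.57). In conditioned medium 7 of 9 were lower in E545K (77.8% against 57.3% of all genes), with a median of -0.68, among them FN1 (-1.53) and NTN4 (-1.15). Of 8 other collagen chains tested, 3 rose and 0 fell under palbociclib in wild type, 2 and 3 in E545K, and 0 and 2 in H1047R, with medians of 0.15, -0.06 and -0.03. The shares called were 37.5%, 62.5% and 25%. After median-centring these splits were 1 and 1, 1 and 4, and 1 and 1. COL27A1 rose in wild type (relative 0.61) and E545K (0.53).

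Of 17 receptors, 6 rose and 1 fell under palbociclib in wild type, 2 and 6 in E545K, and 6 and 4 in H1047R, with medians of -0.04, -0.21 and 0.12. The shares called were 41.2%, 47.1% and 58.8%. The split in wild type was 5 and 2 after quantile normalization, and in E545K 1 and 8 after median-centring. ITGA3, a laminin-332 receptor subunit, was higher in wild type (relative 0.85) and H1047R (0.68). ITGA2, a collagen receptor subunit, was higher in wild type (relative 0.78) and E545K (0.58), and higher again with erlotinib in E545K (1.02). ITGB4, the hemidesmosome subunit that pairs with ITGA6 to bind laminin-332, was lower in E545K under palbociclib (-0.80) and lower in all 3 genotypes in conditioned medium (wild type a relative -1.02, E545K -0.55 and H1047R -0.60). It was higher with erlotinib in E545K (0.45).

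Over the 18 libraries of the first table, the genes whose log2 levels had the highest Pearson correlation with each member were KRR1 for COL3A1 (0.93), JCAD for COL16A1 (0.92), PLA2G15 for COL17A1 (0.96) and VIM for COL18A1 (0.92). They were NFE2L1 for LAMA3 (0.95), OTUD5 for LAMB3 (0.96) and CDK18 for LAMA5 (0.95). With 9 groups behind 18 libraries such values describe the pattern only.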

How the data were processed

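The authors deposited 2 tables of FPKM, 18 and 8 libraries of poly(A) RNA, per the file headers. The build GRCh38 and the tools DESeq2 1.4.5, RSEM 1.3.1, HISAT2 2.1.0 and Bowtie2 2.3.4.3 are named, with no roles, per the submitters' processing notes. Whether strand was kept is not given in the sources used here, so reads of antisense genes at COL18A1, COL4A2 and LAMA5 cannot be told apart. Depth is unknown.

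From these values log2(FPKM + 1) was fitted with limma 3.58.1 (R 4.3.3), with 1 term per group, an intensity trend, and the tables apart. Genes with at least 1 FPKM in at least 2 libraries were tested (12607 and 12463). P-values are two-sided, Benjamini-Hochberg adjusted over all of them per comparison, and called below 0.05. The script was tested on simulated data. All p-values in the text are limma's. With 2 libraries a group no exact test of 1 gene can pass that threshold.

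The members and lists were chosen with earlier results of these data known. The genes named beside the members are matrix genes of a library that stood apart and, per list, up to 5 called genes with the largest change, and for likeness the 3 genes with the highest correlation, of which the first is given. A gene of the lists is not reported here. Alternatives were a pseudocount of 0.1, no filter, quantile normalization, median-centring, only the groups compared, a replicate block and leaving out each library. Plots used matplotlib 3.10.9.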

Additional observations from a re-analysis of the deposited data

Results flagged for a closer look

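Differences of response between lines that passed the test (log2 change in 1 line less that in the other, limma, adjusted over all genes) were these 19. The wild-type libraries enter all but the last, so these values are not independent of one another. Where the median of all genes lay more than 0.1 from 0, the difference less that median follows as the relative value. No group had the 4 libraries that a check for a single outlying sample needs.

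For palbociclib in E545K less wild type, the differences were 0.45 for COL3A1 (SE 0.12), 0.47 for COL16A1 (SE 0.16), -0.67 for COL17A1 (SE 0.14), -0.62 for LAMA3 (SE 0.19), -1.13 for LAMB3 (SE 0.13) and -0.68 for LAMA5 (SE 0.16). The calls of COL16A1 and of LAMA3 ended in 9 of 14 alternatives each. LAMB3 was called in both lines, higher under palbociclib in wild type and lower in E545K. In H1047R less wild type, LAMB3 differed by 0.46 (relative 0.63, SE 0.13), a call that ended in 6 of 14 alternatives.

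For conditioned medium in E545K less wild type, the differences were -2.99 for COL3A1 (relative -2.76, SE 0.12), 0.79 for COL16A1 (relative 1.02, SE 0.16), -0.87 for COL17A1 (relative -0.64, SE 0.14), -1.37 for COL18A1 (relative -1.14, SE 0.15), 0.55 for LAMA3 (relative 0.78, SE 0.19) and -0.50 for LAMA5 (relative -0.27, SE 0.16). The LAMA3 call ended in 8 of 14 alternatives, and LAMA5 was not called after median-centring. In H1047R less wild type they were -1.58 for COL3A1 (relative -1.31, SE 0.12), 0.75 for COL16A1 (relative 1.03, SE 0.16), -0.37 for COL17A1 (relative -0.095, SE 0.14), -0.57 for COL18A1 (relative -0.30, SE 0.15) and 0.66 for LAMB3 (relative 0.93, SE 0.13). COL17A1 and COL18A1 lost their calls after quantile normalization and median-centring. For erlotinib in H1047R less E545K, COL17A1 differed by -0.57 (SE 0.09).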

How the results depend on the processing

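Of 64 gene results with a relative change of at least 0.5 in a called comparison, 53 kept their call in all alternatives run. Of 700 alternatives 648 kept the call, 52 lost it and 0 reversed. As the 64 were chosen by size and call, a reversal under another scaling was unlikely from the start. Smaller called changes could turn sign: COL17A1 in H1047R against wild type in DMSO went from 0.26 to -0.07 after quantile normalization. The 64 include COL3A1 with erlotinib, whose filtered tests are no support for a difference. Of the 21 counts of called members, 199 of 230 alternatives lay within 1.5 times. Quantile normalization took the count for conditioned medium in wild type from 6 to 3, as did median-centring, took that for the palbociclib response of H1047R less wild type from 1 to 0, and took that for the conditioned-medium response of H1047R less wild type from 5 to 3. With only the groups compared, the first-table count of H1047R against E545K under palbociclib went from 3 to 0, that for the palbociclib response of H1047R less wild type from 1 to 0, and that for erlotinib in H1047R from 2 to 1, as also with no filter. No filter took the erlotinib response of H1047R less E545K from 1 to 0. Leaving out a library gave 3 to 6 for H1047R against wild type under palbociclib, 0 to 4 for H1047R against E545K in the first table, 0 to 2 for the palbociclib response of H1047R less wild type, 2 to 3 for erlotinib in E545K, 1 to 3 for erlotinib in H1047R and 0 to 2 for its response of H1047R less E545K. With 1 library left in a group, it is assumed to vary like the others.

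No pairing by replicate number was assumed: deviations correlated from -0.56 to 0.55 over 36 pairs of groups in the first table and from -0.10 to 0.03 over 6 in the second. A replicate block took the erlotinib response of H1047R less E545K from 1 to 0 and changed no other count by over 1.5 times. The cause of these changes was not tested.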
